A study of Mus musculus with 2 samples.

Results

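Long noncoding RNAs and imprinted transcripts were examined in cultured primary hepatocytes from a control and a *Drp1*LiKO preparation. The set was 10 genes chosen by name: *H19*, *Meg3*, *Neat1*, *Malat1*, *Gas5*, *Snhg1*, *Snhg3*, *Rian*, *Mirg* and *Igf2*. Every transcript probe that the array design gives one of these names was taken. This gave 19 probes for 9 genes, of 56605 probes with 37074 names on the array. No probe carried the name *Malat1*. The study asked how loss of *Drp1*, the gene of a dynamin-related GTPase that divides mitochondria, changes gene expression in hepatocytes. *Drp1*LiKO mice carried Alb-CreTg/+ and Drp1flox/flox, so that the albumin promoter drove Cre in hepatocytes. Control mice were sibling littermates with Drp1flox/flox alone, which GEO's genotype label calls wild type. Both were of the C57BL/6 background, and the age of the donors of these cultures was not given in the sources used here. Liver cells were released with collagenase, the pellet of a low-speed spin was plated, and RNA was taken from untreated cells 24 h after seeding.

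Long noncoding RNAs act without being translated. *Gas5*, *Snhg1* and *Snhg3* carry small nucleolar RNAs in their introns, and their spliced remains are usually short-lived. *Neat1* builds paraspeckles and *Malat1* gathers in nuclear speckles, both compartments of the nucleus that hold RNA-processing proteins. *H19*, *Meg3*, *Rian*, *Mirg* and *Igf2* are imprinted, which means that mainly 1 parental copy is transcribed. *H19* and *Igf2* are abundant in fetal liver and are silenced in the mouse liver after birth.

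There was 1 array per genotype, so each ratio describes these 2 arrays and has no replicate check and no p-value. Signals are processed intensities in arbitrary units, written with the error that Feature Extraction gave the spot. Their 75th percentile was 313 on the control array and 356 on the *Drp1*LiKO array, and ratios were taken after each array was divided by it. A ratio is given as log2 of *Drp1*LiKO over control. Its Z score, the distance from the mean of all ratios in SDs, passed the threshold at 2 in either direction, which corresponded to log2 ratios of 1.30 and -1.31. Of 20165 genes detected on at least 1 array, 705 (3.50%) were past it as higher in *Drp1*LiKO and 566 (2.81%) as lower. In the authors' normalized table the split was 553 higher and 735 lower. Of 30275 probes, 2.94% were higher and 2.49% lower. *Dnm1l*, the official name of *Drp1*, gave 2602 ± 260 on the control array and 1217 ± 122 on the *Drp1*LiKO array with its brighter probe, a log2 ratio of -1.28 and a Z score of -1.95. Whether the probe lies in the deleted part was not given in the sources used here.

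The hepatocyte label was checked against marker genes. All 18 listed hepatocyte markers were detected on at least 1 array, and 16 of them on both arrays. *Pck1* was not well above background in control, nor *G6pc* in *Drp1*LiKO. *Alb* (albumin) gave 219610 in control and 266700 in *Drp1*LiKO before scaling, a log2 ratio of 0.10. Only *Cyp3a11*, at 2.03, was past the threshold as higher, and none was past it as lower. Of the 18 markers 12 lay above 0 and 6 below, with 0.35 as the median. Summed signals were 783680 in control and 808140 in *Drp1*LiKO. Markers of other liver cells were detected too, and many were higher in *Drp1*LiKO. Of 15 detected macrophage markers 12 were past the threshold as higher. The signal of the macrophage markers, summed over the brightest probe of each, was 9198 in control and 25924 in *Drp1*LiKO. Only *Itgam*, the brightest of the 15 in control, had a ratio below 0, with 4132 and 3869 and a log2 ratio of -0.28. Of 13 endothelial markers 7 were past the threshold as higher, with summed signals of 4766 and 10179. Only *Flt4* among the 13 had a ratio below 0, at -0.28. Of 11 stellate cell markers 4 were past the threshold as higher, with summed signals of 91629 and 102170. Most of these sums came from *Vim* and *Acta2*, with log2 ratios of -0.12 and 0.02. None of 6 cholangiocyte markers was past it in either direction, with summed signals of 29787 and 25262. All sums are of signals before scaling, and they include listed genes on the array that were not detected. The 75th percentile used for scaling was 313 on the control array and 356 on the *Drp1*LiKO array. The macrophage markers *Timd4* and *Cd163*, the stellate cell markers *Lrat* and *Hand2*, and *Epcam* and *Cftr* of cholangiocytes were not well above background on either array. The part of these cells in the values below was not tested, except where a measurement is given beside a result. In such bulk samples, fewer cells of a type and less RNA per cell cannot be told apart.

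None of the 10 genes was past the threshold in either direction. With 6 genes detected, a count of 0 is near the background of 3.50% higher and 2.81% lower among all genes. *Gas5*, *Neat1*, *Snhg1* and *Snhg3* were measured on both arrays, with log2 ratios from -0.26 to 0.48. *Meg3* and *Mirg* were well above background on the *Drp1*LiKO array only. *H19*, *Rian* and *Igf2* were not well above background on either array. Of the 19 probes, 6 were well above background on both arrays, 3 on the *Drp1*LiKO array only, none on the control array only and 10 on neither. The median log2 ratio of the 4 genes measured on both arrays was 0.07, and it was -0.05 over all genes measured on both.

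**Figure D1:**
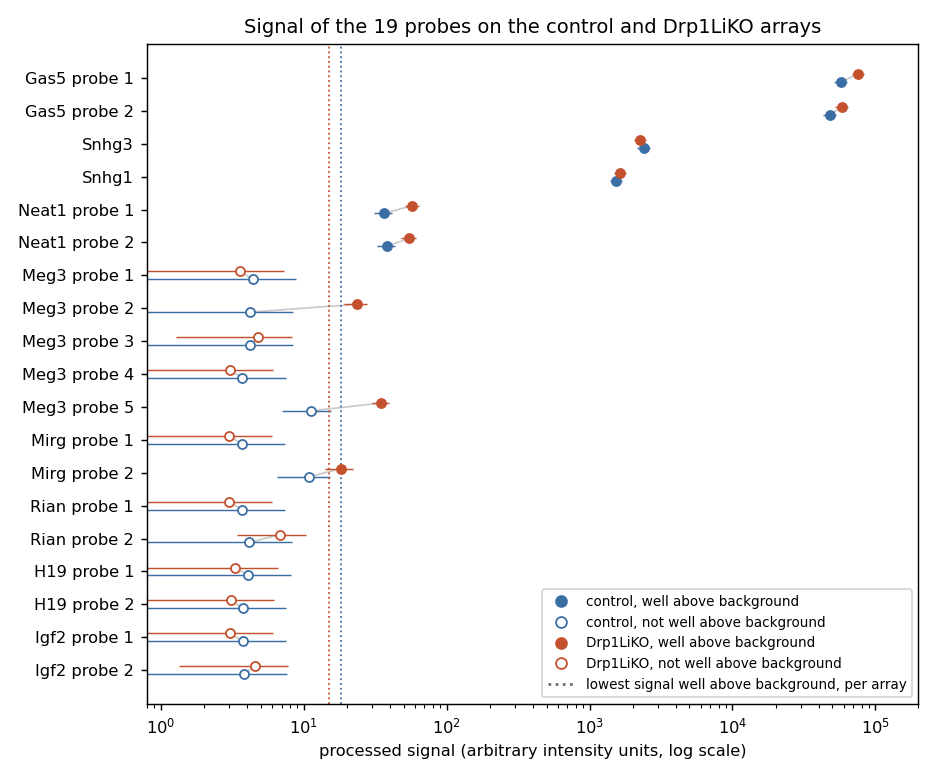
Processed signal of each of the 19 probes on the control array (blue) and the Drp1LiKO array (red), on a log axis in arbitrary intensity units. Filled points were well above background, open points were not, bars are the error that Feature Extraction gave the spot (cut at the left edge of the plot), and dotted lines are the lowest signal well above background on each array, 18.2 for control and 14.98 for Drp1LiKO. The probes of Gas5, Snhg3, Snhg1 and Neat1 lie right of both lines, and those of H19, Rian and Igf2 lie left of both. Signals of different probes are not comparable as amounts of RNA.

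The small nucleolar RNA hosts were detected on both arrays by each of their probes, and their ratios were small. *Gas5* encodes box C/D small nucleolar RNAs, and its spliced transcript is degraded when ribosomes read it. Its probes are shown because they read 2 stretches of the spliced transcript. The letters of the first come from genome positions that lie 507 bases from end to end, so that it crosses at least 1 intron, while the second lies in 1 piece. Both are on the plus strand of mm9, at chr1:162967641-162968147 and chr1:162968590-162968649.
Gas5 probe 1: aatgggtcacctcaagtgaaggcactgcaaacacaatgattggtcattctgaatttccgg
Gas5 probe 2: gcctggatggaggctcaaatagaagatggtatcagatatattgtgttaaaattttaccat
The first gave 57306 ± 5731 on the control array and 75992 ± 7599 on the *Drp1*LiKO array. The second gave 48069 ± 4807 and 58365 ± 5837. After scaling, the log2 ratios were 0.22 and 0.10, with Z scores of 0.36 and 0.16. Both probes were thus higher in *Drp1*LiKO, by 1.17-fold and 1.07-fold.

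*Snhg1* carries box C/D small nucleolar RNAs and was read by 1 probe at chr19:8798913-8798972 on the plus strand. It gave 1538 ± 154 on the control array and 1646 ± 165 on the *Drp1*LiKO array, a log2 ratio of -0.08. *Snhg3*, the host of the box H/ACA RNAs of the U17 family, was read by 1 probe. It gave 2392 ± 239 and 2269 ± 227, a log2 ratio of -0.26 with a Z score of -0.38. The sign of *Snhg1* came from the scaling, since its signal before scaling was higher in *Drp1*LiKO.
Snhg1 probe: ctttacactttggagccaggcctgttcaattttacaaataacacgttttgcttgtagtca
The variation between spots of 1 array set a scale for these ratios. It was taken from 300 probes printed 10 times on each array, and came to 0.05 for the *Gas5* ratios, 0.07 for *Snhg1* and 0.07 for *Snhg3* on the log2 scale. The ratios of *Gas5* probe 1 and *Snhg3* were 4.13 and 3.72 times that noise, and that of *Snhg1* 1.14 times. Against probes of similar signal, *Gas5* probe 1 lay 1.12 SDs above their mean, *Snhg1* 0.14 below and *Snhg3* 0.58 below, with SDs of 0.26 for *Gas5*, 0.43 for *Snhg1* and 0.44 for *Snhg3*. Spot noise leaves out the differences between mice and between cultures.

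**Figure D2:**
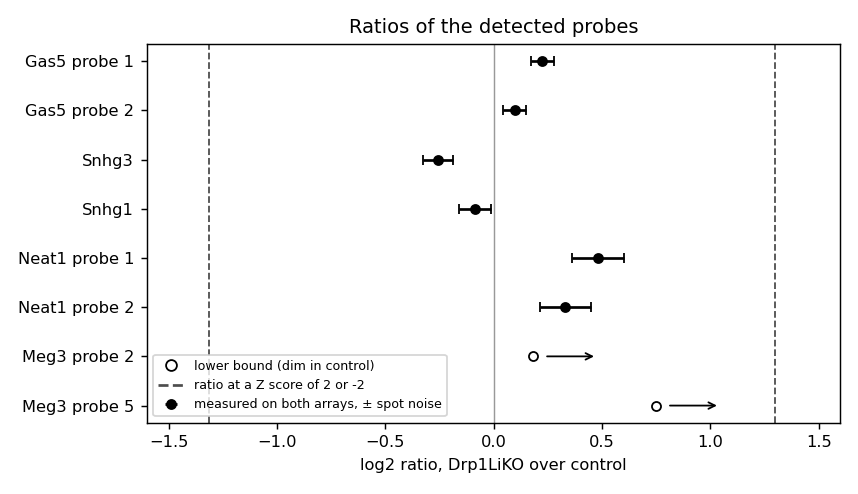
Log2 ratio (Drp1LiKO over control) of each probe with a ratio or a bound. Filled points were measured on both arrays, with bars of 1 SD of spot noise, open points with arrows are lower bounds for probes that were dim on the control array, and dashed lines are the ratios at a Z score of 2 or -2. Every point lies between the dashed lines, from -0.26 for Snhg3 to 0.48 for Neat1 probe 1 and a bound of 0.75 for Meg3 probe 5.

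Neighbours of the host genes on the chromosome gave no called probe either, where 2.94% of all detected probes were called higher and 2.49% lower. The counts that follow include the probes of the host genes themselves. Within 50 kb of *Gas5*, 13 of 14 probes were detected and their log2 ratios ran from -0.78 to 0.60. *Serpinc1*, the gene of antithrombin, had 0.43 with its brightest probe. Near *Snhg1*, 16 of 20 probes were detected with a range from -0.46 to 0.60, including -0.20 for *Slc3a2*, an amino acid transporter subunit, and 0.04 for *Wdr74*, a ribosome assembly factor. Near *Snhg3*, 12 of 15 were detected. The probe named *Snora73a*, for an RNA that *Snhg3* hosts, gave 27592 and 27450, a log2 ratio of -0.19, and *Rcc1*, the nucleotide exchange factor of Ran next to it, had -0.29.

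Other small nucleolar RNA hosts were also inside the threshold. Of 23 such genes on the array all 23 were measured on both arrays, none was past the threshold, 16 had a ratio above 0 and 7 below 0, and the median was 0.15. The highest was *Snhg11* at 1.03 (189 and 440), chosen after its value was seen. The brightest, the ribosomal protein genes *Rpsa* and *Rpl13a*, had -0.23 and -0.12. Genes of nonsense-mediated decay, the pathway that degrades spliced *Gas5*, were measured for 10 of 10, with none past the threshold and a median of -0.12. *Upf3a* had -0.12 and *Smg5* 0.13. For the hosts and the decay genes alike, a count of 0 is near the 3.50% higher and 2.81% lower among all genes.

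*Neat1* was dim but measured on both arrays, and its ratios were above 0. Its 2 probes lie on the minus strand of mm9, at chr19:5844378-5844437 (probe 1, nearer the 5′ end) and chr19:5844123-5844182 (probe 2). Another probe, at chr19:5842654-5842713 on the same strand, is named NEAT1 in capitals in the design and was not among the 19. They are shown together because all 3 read the same strand within a short stretch.
Neat1 probe 1: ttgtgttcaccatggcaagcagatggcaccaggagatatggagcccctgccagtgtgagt
Neat1 probe 2: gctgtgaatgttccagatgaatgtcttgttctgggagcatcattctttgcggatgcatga
NEAT1 probe: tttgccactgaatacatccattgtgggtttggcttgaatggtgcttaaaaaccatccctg
Probe 1 gave 36.3 ± 5.26 on the control array and 57.5 ± 6.53 on the *Drp1*LiKO array, a log2 ratio of 0.48 with a Z score of 0.75. Probe 2 gave 38.1 ± 5.59 and 54.3 ± 6.37, a log2 ratio of 0.33. The probe named NEAT1 gave 361 and 543, a log2 ratio of 0.41. All 3 were higher in *Drp1*LiKO by between 1.26-fold and 1.40-fold, and none was past the threshold. Spot noise was 0.12 at these signals. The SD of all ratios at similar signal was 1.09 for probes 1 and 2 and 0.56 for the NEAT1 probe.

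The same direction was seen along noncoding probes around *Neat1*, most of them at lower coordinates. A stretch of 47.9 kb around *Neat1*, delimited after the values were seen, held 8 probes of *Neat1*, NEAT1 and unnamed long noncoding transcripts, all measured on both arrays. One more, just beyond it, was not well above background on either array. Their log2 ratios ran from 0.33 to 0.91 with a median of 0.46, and none was past the threshold. They included 5 probes on the strand of *Neat1* and 3 on the opposite strand. A transcript that the design calls chr19:5798135-5800557_R gave 6755 and 12455, a log2 ratio of 0.70. A probe of chr19:5771425-5848475_F, on the strand opposite to *Neat1*, gave 1638 and 3494 and the highest ratio of the stretch, 0.91. The protein-coding genes beyond it stood lower, with -0.10 for *Frmd8* and -0.46 for *Slc25a45*, a mitochondrial carrier gene.

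**Figure D3:**
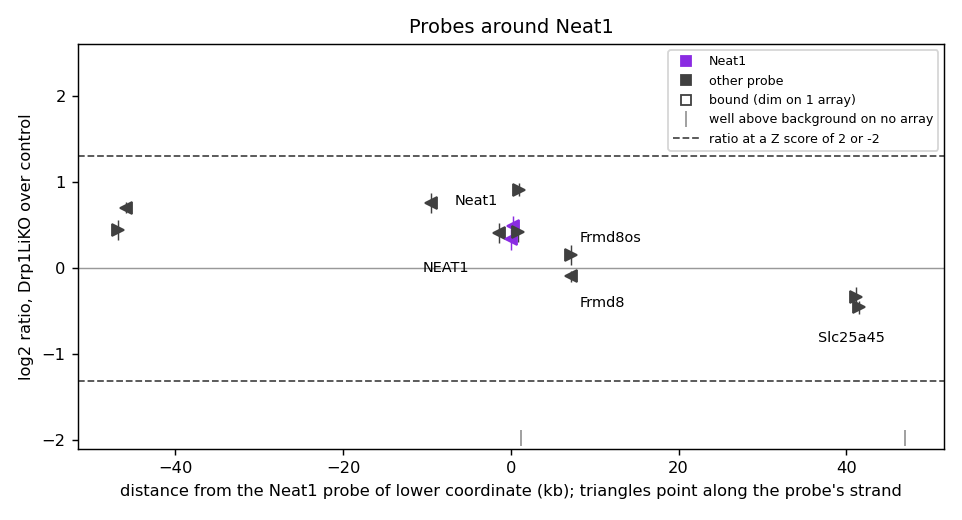
Log2 ratio (Drp1LiKO over control) of each detected probe against its distance in kb from the Neat1 probe of lower coordinate. Triangles point along the strand of the probe, purple marks Neat1, bars are 1 SD of spot noise, grey ticks at the bottom are probes well above background on neither array, and dashed lines are the ratios at a Z score of 2 or -2. The 8 noncoding probes left of Frmd8 lie between 0.33 and 0.91, and the probes of Frmd8 and Slc25a45 lie below 0.

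Proteins of paraspeckles, the compartment that *Neat1* builds, were measured for 15 of 15 genes. None was past the threshold, 13 had a ratio below 0 and 2 above 0, and the median was -0.13. *Tardbp*, which encodes the RNA-binding protein TDP-43, had -0.20 and *Smarca4*, a chromatin remodeling ATPase, -0.10. *Malat1* itself had no probe under its name, and whether probes of the unnamed transcripts near *Neat1* read it was not determined. Proteins of nuclear speckles, where *Malat1* RNA resides, were measured for 11 of 11 genes, with none past the threshold and a median of 0.05. *Son*, a scaffold of these speckles, had 0.35 and *Srrm2*, the other scaffold, 0.14. For both protein lists, a count of 0 is near the 3.50% higher and 2.81% lower among all genes.

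*Meg3*, *Rian* and *Mirg* lie in this order on the plus strand of chromosome 12 and are transcribed from the maternal copy, whereas the neighbours *Dlk1*, *Rtl1* and *Dio3* are transcribed from the paternal copy. None of their 9 probes was well above background on the control array, and 3 were so on the *Drp1*LiKO array. *Meg3* had 5 probes from chr12:110782745 to chr12:110809737 in mm9, of which the second and the fifth were detected. They are shown with Mirg probe 2 because these 3 carry all of the signal of the 3 genes. They lie at chr12:110783470-110783529, chr12:110809678-110809737 and chr12:110987569-110987628.
Meg3 probe 2: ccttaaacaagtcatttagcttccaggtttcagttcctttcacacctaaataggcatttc
Meg3 probe 5: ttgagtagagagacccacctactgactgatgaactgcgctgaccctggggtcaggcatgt
Mirg probe 2: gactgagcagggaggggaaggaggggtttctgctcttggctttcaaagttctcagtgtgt
Probe 5 of *Meg3* gave 11.3 ± 4.28 on the control array, not well above background, and 34.7 ± 4.84 on the *Drp1*LiKO array. It was at least 1.68-fold higher in *Drp1*LiKO, where the control signal was replaced by the lowest signal well above background on that array. The log2 value of this bound was 0.75, and the log2 ratio was 0.08 with another background correction (normexp) and 0.005 in the authors' normalized table. Probe 2 gave 4.20 ± 4.21 and 23.4 ± 4.15, at least 1.13-fold higher. The other 3 probes of *Meg3* stayed between 3.04 and 4.80 on both arrays, not well above background. Probes of 1 gene therefore disagreed in detection. Probe 2 of *Mirg*, a host of many microRNAs, gave 10.9 ± 4.41 and 18.1 ± 3.95, and no fold is given because the bound was under 1. All 3 signals were low, at 18.1 to 34.7 where the lowest signal well above background on that array was 14.98.

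*Rian*, which carries box C/D small nucleolar RNAs, was not detected by either of its probes, which gave 3.71 ± 3.72 and 4.14 ± 4.15 on the control array and 3.02 ± 3.03 and 6.87 ± 3.47 on the *Drp1*LiKO array. The letters of one of them come from both ends of chr12:110865343-110872442, which spans 7100 bases, so that it crosses at least 1 intron. A probe for the unnamed transcript that the design calls chr12:110842154-110883594_F lies at chr12:110865304-110865363 and ends with the same 21 bases, set in capitals below, that open the *Rian* probe.
Rian probe: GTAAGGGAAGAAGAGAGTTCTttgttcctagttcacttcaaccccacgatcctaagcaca
Unnamed transcript: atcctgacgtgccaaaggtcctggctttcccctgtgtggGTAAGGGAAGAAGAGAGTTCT
The unnamed transcript was measured on both arrays, at 36.0 and 37.9, with a log2 ratio of -0.11. The probes thus differed in detection although they share these bases.

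The whole domain from *Dlk1* to *Dio3* spans 820 kb and held 48 probes, of which 14 were detected and 8 measured on both arrays. Of the 14 detected probes, 2 were past the threshold as higher and 1 as lower, where 2.94% and 2.49% of all detected probes were. The 2 protein-coding genes at the ends of the domain went in opposite directions. *Dlk1*, a membrane protein of fetal liver and progenitor cells, gave 160 in control and 70.0 in *Drp1*LiKO, a log2 ratio of -1.37 and a Z score of -2.09. *Dio3*, the deiodinase that inactivates thyroid hormone, gave 39.7 and 393, a log2 ratio of 3.13 and a Z score of 4.81. In the authors' normalized table the ratio of *Dio3* was 0.57 and that of *Dlk1* -1.20, neither past the threshold. The other probe of *Dlk1* was at least 2.23-fold lower in *Drp1*LiKO.

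Between these genes, the minus-strand transcript chr12:110738120-110769295_R, which lies between *Dlk1* and *Meg3*, gave 11.02 and 51.01 and was at least 2.47-fold higher in *Drp1*LiKO. Its bound had a Z score of 2.01, just past the threshold. On the plus strand between *Meg3* and *Rian*, *6430411K18Rik* gave 27.5 and 3.77, at least 2.09-fold lower. These were chosen after their values were seen. The remaining probes measured on both arrays had log2 ratios from -0.69 to 0.02, with -0.19 for *Dio3os*, the antisense neighbour of *Dio3*. *Rtl1*, inside the domain, and the listed neighbour *Begain*, which has no probe inside it, were not well above background on either array. Of the marker genes given above, 12 of 15 for macrophages, 7 of 13 for endothelial cells and 4 of 11 for stellate cells were past the threshold as higher in *Drp1*LiKO. Of the stellate cell markers 3 had a ratio below 0, and values ranged from -0.17 to 3.13. Among them *Col1a2* had 2.93 and *Tagln* 1.79, and the brightest, *Vim* and *Acta2*, had -0.12 and 0.02. Their part in the values of *Meg3* and *Dio3* was not tested.

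**Figure D4:**
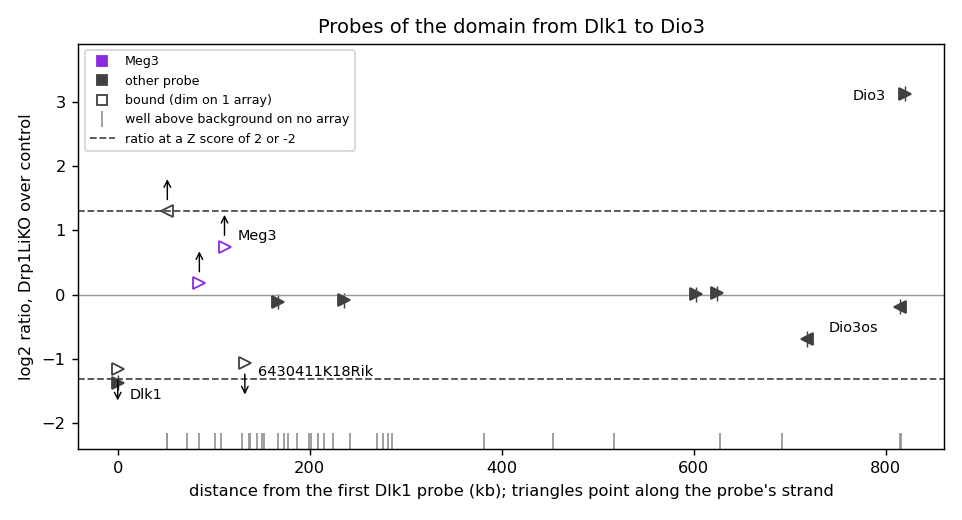
Log2 ratio (Drp1LiKO over control) of each detected probe against its distance in kb from the first Dlk1 probe. Triangles point along the strand of the probe, purple marks Meg3, open triangles with arrows are bounds for probes that were dim on 1 array, bars are 1 SD of spot noise, grey ticks at the bottom are probes well above background on neither array, and dashed lines are the ratios at a Z score of 2 or -2. Mirg has no bound and is not drawn. Dio3 lies at 3.13 and Dlk1 at -1.37, and both Meg3 bounds lie between 0 and the upper dashed line.

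*H19* and *Igf2*, neighbours on chromosome 7 that share enhancers, were not detected. The probes of *H19*, a precursor of a microRNA, lie on the minus strand at chr7:149761492-149761551 and chr7:149762173-149762232. They are shown because the lack of a signal rests on them.
H19 probe 1: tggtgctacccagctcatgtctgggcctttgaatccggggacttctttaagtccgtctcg
H19 probe 2: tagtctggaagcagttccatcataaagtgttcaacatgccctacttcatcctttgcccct
Probe 1, at the higher coordinates, gave 4.088 ± 4.099 on the control array and 3.32 ± 3.33 on the *Drp1*LiKO array. Probe 2 gave 3.78 ± 3.79 and 3.08 ± 3.09. *Igf2*, the fetal growth factor, gave 3.84 ± 3.85 and 4.54 ± 3.19 with one probe and 3.75 ± 3.77 and 3.05 ± 3.06 with the other. All lay under the lowest signals well above background, 18.2 on the control array and 14.98 on the *Drp1*LiKO array, so that a difference between genotypes was not detectable. Within 50 kb of them 11 probes were placed, those of *H19* and *Igf2* included, and 3 were detected. The detected ones included *Mrpl23*, a mitochondrial ribosomal protein gene, with a log2 ratio of 0.27 and *Nctc1*, a noncoding transcript, with -0.16.

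Genes that act on IGF2, or that share its fetal expression, were mostly inside the threshold, which 2.81% of all genes passed as lower. Of 12 detected receptors, binding proteins and signaling partners, 1 (8.33%) was past it as lower, *Igfbp6*, a binding protein with preference for IGF2, at 325 in control and 65.6 in *Drp1*LiKO and a log2 ratio of -2.49. *Igf1*, the liver's circulating growth factor, had -0.91 and *Igfbp1* -0.50. Under 3 of 12 alternative settings *Igf1* was past the threshold as lower, with a Z score of -3.18 among probes of similar signal. Of 11 detected fetal liver genes and their regulators, 2 (18.2%) were past it as lower, *Dlk1* and *Igf2bp1*, which encodes a fetal protein that binds IGF2 mRNA. *Igf2bp1* gave 137 and 35.2, a log2 ratio of -2.14. *Afp*, the fetal albumin that is silenced after birth as *H19* is, had -0.39, and *Zbtb20*, a repressor of *Afp*, -0.30. Of 10 detected factors that set, keep or remove DNA methylation or bind imprinted regions, 1 (10.0%) was past it as lower. This was *Uhrf1*, which brings the maintenance DNA methyltransferase to replicated DNA, at 4191 and 1808 with a log2 ratio of -1.40. It was inside the threshold without a floor for dim signals, at a Z score of -1.604. *Trim28*, a corepressor at imprinted regions, had -0.23.

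Among other imprinted genes, *Dlk1* and *Dio3* included, 4 were past the threshold. Of 45 on the array 31 were detected, 3 of them past the threshold as higher (9.68%, against 3.50% of all genes) and 1 as lower (3.23%, against 2.81%). The higher ones were *Dcn*, a collagen-binding proteoglycan of connective tissue, with 203 in control and 3848 in *Drp1*LiKO and a log2 ratio of 4.06, *Dio3*, and *Mest*, an enzyme-like protein of mesoderm, with 64.9 and 268 and a log2 ratio of 1.86. With the median of its probes *Mest* was at 1.06 and inside the threshold. The brightest of the list, *Gnas* and *H13*, had -0.15 and -0.20. *Dcn* is a gene of stellate cells and fibroblasts, and 4 of 11 stellate cell markers were past the threshold as higher, as it was. Their part in its ratio was not tested.

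**Figure D5:**
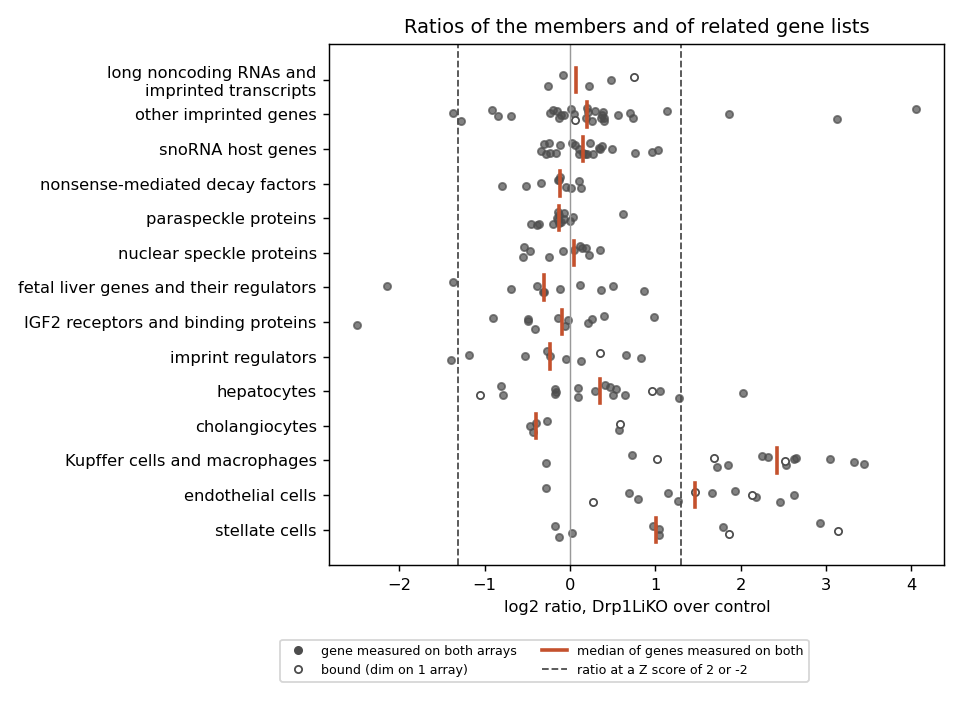
Log2 ratio (Drp1LiKO over control) of each detected gene by its brightest probe, in rows for the long noncoding RNAs and imprinted transcripts and for each related list. Filled points were measured on both arrays, open points are bounds for genes dim on 1 array, the red bar is the median of the genes measured on both, and dashed lines are the ratios at a Z score of 2 or -2. The medians of the marker lists of macrophages (2.43), endothelial cells (1.46) and stellate cells (1.01) lie highest, and that of the long noncoding RNAs and imprinted transcripts lies at 0.07.

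Detection of the set was set beside that of noncoding probes in general. Of 4460 probes described as long intergenic noncoding RNAs, 34.1% were well above background on the control array and 38.7% on the *Drp1*LiKO array. For probes with a RefSeq accession of a noncoding RNA these shares were 27.5% and 30.3%, and for those of a messenger RNA 63.7% and 67.0%. Among detected probes of RefSeq noncoding RNAs, 2.02% were past the threshold as higher and 5.30% as lower, and among those of messenger RNAs 3.34% and 2.23%. Among detected probes of long intergenic noncoding RNAs, the shares were 2.15% and 2.70%. Of the 19 probes, 6 were well above background on the control array and 9 on the *Drp1*LiKO array. The differences in these shares between the arrays and between classes were not tested.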

How the data were processed

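RNA of primary hepatocytes was hybridized to 60-mer mouse arrays in 1 color, 1 array per genotype on 1 slide. The authors deposited scanner output in which Feature Extraction had corrected each intensity for background (version 9.5.1.1 in the processing notes, 10.7.1.1 in the file headers), and a table of normalized intensities, used here only as an alternative. Outlier spots were dropped, the log2 intensities of a probe were averaged, and each array was centered on its 75th percentile. A dim signal, one not well above background, was set to that array's lowest signal that passed, which makes its ratio a bound. The Z score covered all 30275 probes that passed on either array. A gene was its brightest probe. The design allows no test, so the study's threshold of 2 was used for calls. Spot noise is the median SD of the 50 nearest probes in signal among those printed repeatedly. The members and lists were chosen with earlier results of these data known. Every member was named, and of each other list the genes past the threshold (at most 6), the 2 brightest and chromosomal neighbours. Gene names and mm9 coordinates are those of the array design, and exon positions were not assigned. No spot was saturated. The procedure was tested on simulated data. Limma 3.58.1 gave the normexp alternative, and other steps ran in Python 3.11.15. The sequence of 1 probe and the values of 1 neighbouring gene are not reported here.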

Additional observations from a re-analysis of the deposited data

How the results depend on the processing

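With 1 array per genotype no replicate could be left out. No paired analysis was possible because each genotype has 1 array. None of the 10 genes passed the threshold under 11 of 12 alternatives. With a robust Z score, built on the median absolute deviation, 1 did, *Meg3* (Z score 2.16, as a bound), and 1722 genes of the array were then higher and 1443 lower. With dim probes kept, 1355 genes were called higher, and the median of all genes shifted by -0.42, to -0.47, the difference between the floors of the arrays. The median log2 ratio of the detected members was 0.07 and became -0.10 in the authors' normalized table, -0.19 without a filter on dim probes and 0.35 without a floor for dim signals. *Neat1* stayed between 0.12 and 0.68, *Gas5* between 0.16 and 0.30, *Snhg1* between -0.21 and -0.04 and *Snhg3* between -0.28 and -0.22 under all 12. *Meg3* ran from 0.005 to 1.44 under 11, and *Mirg*, dim on the control array, from -0.93 to 0.55. Counting the NEAT1 probe with *Neat1* was added after seeing the data. Of 87 named genes in all, none changed sign while past the threshold. *Dlk1* was past it under 8 of 12, and fell inside in the authors' table, without a floor, among probes of similar signal and with the median of its probes. Where no value above shows the cause of a change, it was not tested. Signals near background, as those of *Meg3* and *Mirg*, limit what these arrays show.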
